A study of Saccharomyces cerevisiae with 6 samples.

Results

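The phosphate-responsive PHO genes of Saccharomyces cerevisiae were examined for Rap1 binding during loss of histone H4. The 10 genes were taken by name and not by their Rap1 values: PHO3, PHO5, PHO8, PHO11 and PHO12, which encode phosphatases, PHO84 and PHO89, which encode phosphate transporters, and the regulators PHO4, PHO80 and PHO81. All 10 were matched in the RefSeq table of the R64 assembly, among 6002 protein-coding nuclear genes. A gene was counted when a listed peak shared at least 1 bp with its coding span or with the 1000 bp before its coding start.

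Cells of the H4 shutoff strain UKY403 were grown in galactose and then moved to dextrose at 30 °C, and Rap1 was immunoprecipitated from formaldehyde-crosslinked cells after 0, 2 and 4 h. All 3 groups carry the shutoff allele, and the labels name no change in phosphate. Time in dextrose, the change of carbon source and loss of H4 cannot be told apart in these groups, because the isogenic strain UKY412 was not analysed here. Each group had 2 biological replicates, but the values are 1 peak list per time point, so no spread between replicates exists and the times are described without a test. The lists at 0, 2 and 4 h held 1212, 2438 and 4073 peaks, built from 983197, 1483679 and 2327099 tags that remained once duplicates were removed. H4 itself was not measured in these files.

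In yeast, low phosphate inactivates the cyclin-dependent kinase formed by Pho80 and Pho85 through the inhibitor Pho81. The activator Pho4 then enters the nucleus and switches on phosphatase and transporter genes. The PHO5 promoter is a classic case of activation by chromatin opening: positioned nucleosomes cover it in high phosphate, and depletion of H4 was found to switch the gene on without its usual signal. Rap1 is a sequence-specific factor best known for ribosomal protein genes and telomeres, and it is not counted among the core regulators of the PHO pathway.

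The PHO genes fell into 4 sets by where and when Rap1 peaks were listed. PHO84, PHO89 and PHO81 had upstream peaks at every time. PHO5, PHO4 and PHO8 had no peak at 0 h and a coding peak at 2 and 4 h, while PHO3 and PHO80 had peaks at 4 h alone. PHO11 and PHO12 had none at any time. Merged across the lists, the peaks of these genes formed 14 separate regions, of which 3 were listed at all times, 1 at 0 and 2 h, 3 at 2 and 4 h and 7 at 4 h alone.

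**Figure D1:**
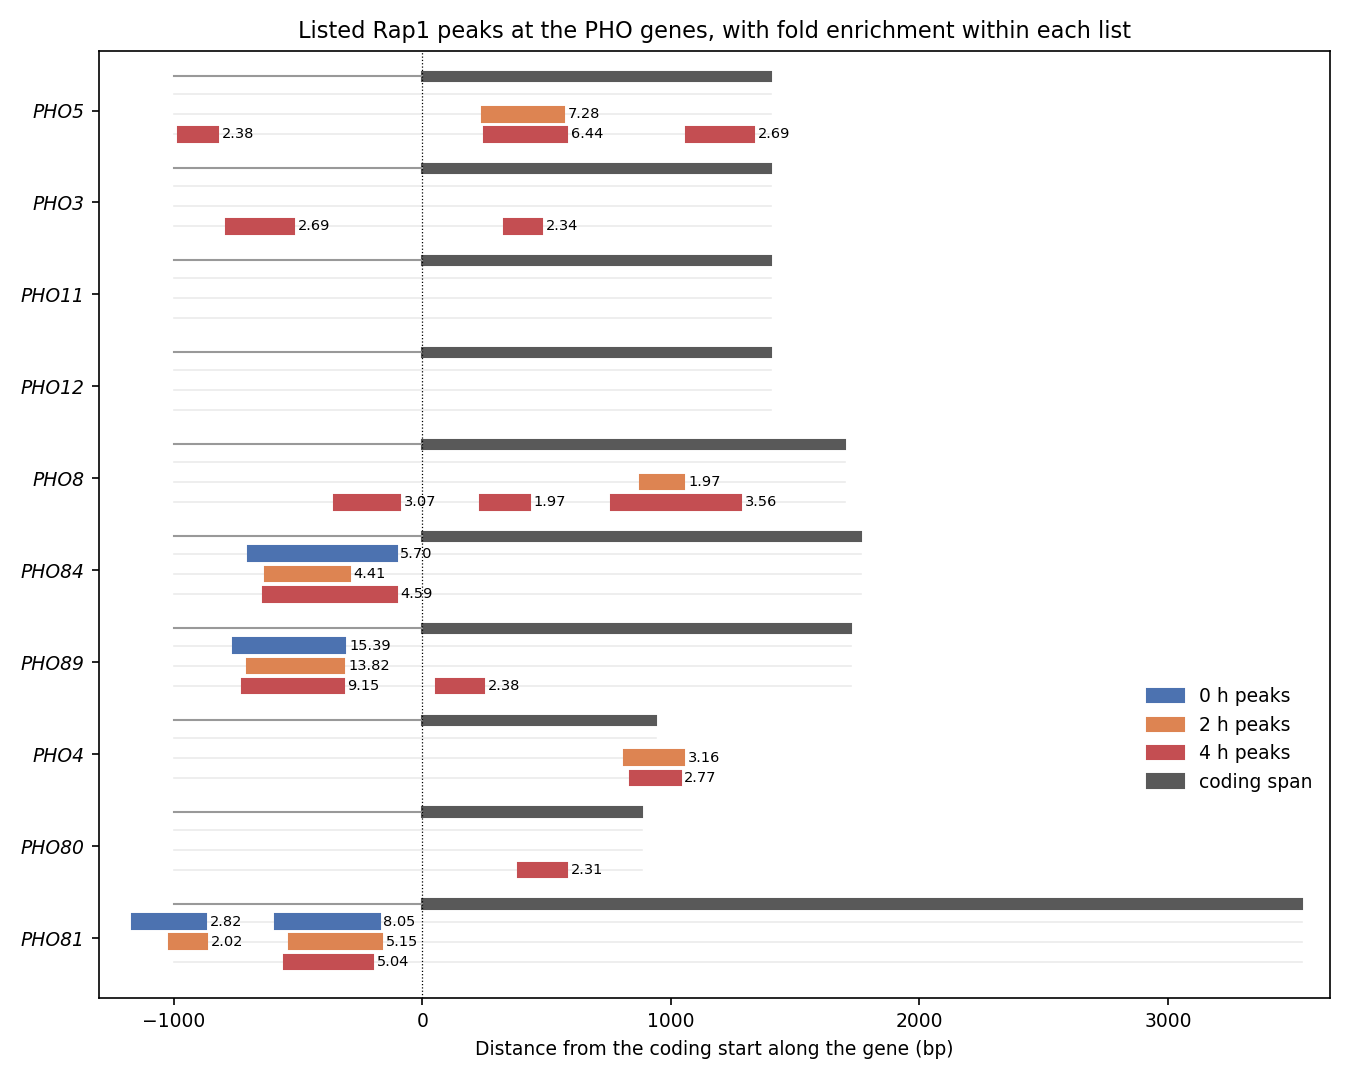
Position of every listed Rap1 peak at the 10 PHO genes, by distance in bp from the coding start, with coding spans as dark bars, upstream windows as thin lines and 1 row for each of the 0, 2 and 4 h lists. Numbers are the authors' fold enrichments; PHO84, PHO89 and PHO81 carry upstream peaks in every row, and PHO11 and PHO12 carry none.

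PHO5 encodes the secreted acid phosphatase that cells induce in low phosphate. It lies on chromosome II, 429548 to 430951, minus strand (sacCer3, as all coordinates here). No peak was listed over its coding span or upstream window at 0 h, when the nearest listed peak lay 2492 bp beyond its 3′ end. At 2 h a peak at 430381 to 430709 had its summit 409 bp after the coding start, at 29.1% of the span. Its summit height, the number of extended tags at the summit without scaling for depth, was 138 over a local background of 18.1, a fold enrichment of 7.28. At 4 h the peak at 430369 to 430703 had a height of 194 over a background of 29.3, a fold enrichment of 6.44, and its summit lay 413 bp after the start. The summits of the 2 lists were 4 bp apart, against a median of 13 bp for all new 2 h peaks that overlapped a 4 h peak. Fold enrichments throughout are the authors' values for each peak relative to its own library, and they are ranked only within a list.

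This was the highest coding peak of the 10 genes at both times. Peaks that overlapped no 0 h peak are called new here. By fold enrichment it ranked 17 among the 1252 new peaks over coding spans at 2 h, whose median was 2.92. At 4 h it ranked 112 among 2791, with a median of 2.76. Among all peaks of a list its rank was 463 of 2438 at 2 h and 494 of 4073 at 4 h. The local background was 1.02 and 1.05 times the genome-wide background at 2 and 4 h.

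At 4 h PHO5 had 2 weaker peaks besides. The peak at 429615 to 429890 lay near the 3′ end of the coding span, with its summit 1232 bp after the start, a height of 81 and a fold enrichment of 2.69. This same peak lies in the window upstream of PHO3, 618 bp before that gene's start, and was counted for both genes. The peak at 431772 to 431935 had its summit 915 bp before the PHO5 start, a height of 68 and a fold enrichment of 2.38. It is nearer to the divergent gene PBY1, 170 bp before whose coding start the summit lies. Within 500 bp before the PHO5 start no peak was listed at 0, 2 or 4 h.

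PHO3 is the tandem neighbour of PHO5, 446 bp downstream of it, and encodes a closely related acid phosphatase that does not depend on phosphate. Over its coding span (427698 to 429101) a peak was listed only at 4 h, at 428618 to 428770, with a height of 70 and a fold enrichment of 2.34. Its summit lay 392 bp after the start, at 27.9% of the span, close to the relative place of the PHO5 summit, but the peak ranked 2986 of 4073. PHO3 and PHO5 are similar in sequence, and the sources used here do not say how tags matching both were placed.

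**Figure D2:**
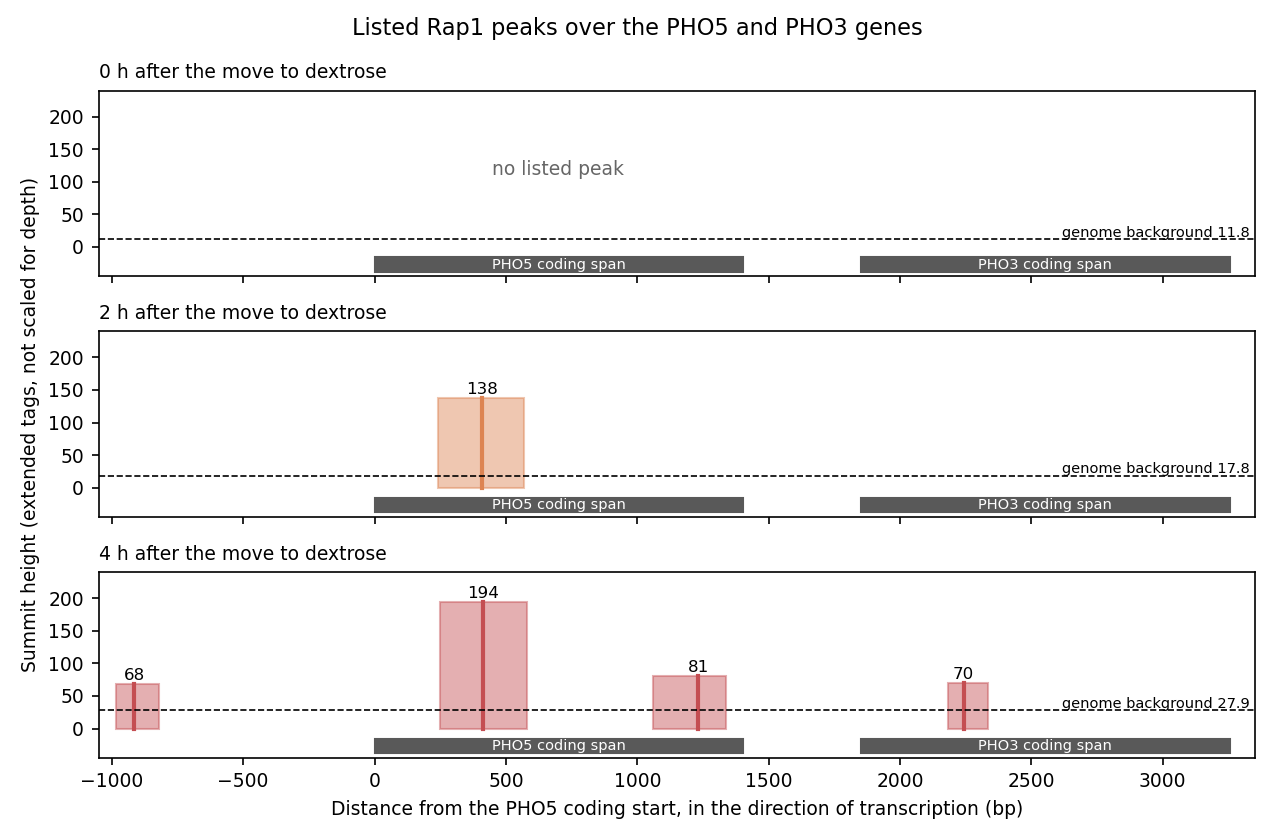
Summit heights (extended tags, not scaled for depth) of the listed peaks over PHO5 and PHO3, by distance in bp from the PHO5 coding start; boxes span the peaks, lines mark summits and dashed lines the genome-wide background of 11.8, 17.8 and 27.9 tags at 0, 2 and 4 h. The region is empty at 0 h, holds 1 peak of height 138 at 2 h, and at 4 h that peak stands at 194 with 3 others from 68 to 81.

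PHO8 encodes the vacuolar alkaline phosphatase (chromosome IV, 1418550 to 1420250, minus strand). It had no peak at 0 h and a barely listed one at 2 h, at 1419196 to 1419373, with a height of 36, a fold enrichment of 1.97 and rank 2384 of 2438. At 4 h the region carried a wider peak of 523 bp, from 1418968 to 1419490, with a height of 102, a fold enrichment of 3.56 and its summit 959 bp after the start. The 2 h summit lay 911 bp after the start, 48 bp away, above the upper quartile of 28.0 bp for all new 2 h peaks. A second coding peak at 4 h was weak, with a fold enrichment of 1.97 and its summit 322 bp after the start. The 4 h peak at 1420340 to 1420604 had its summit 242 bp before the start and a fold enrichment of 3.07. That summit lies inside CWC21, which encodes a spliceosome component and whose coding span ends 180 bp from the PHO8 start, so the peak is at once a coding peak of CWC21. It also lies in the upstream window of KRE2.

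PHO11 (chromosome I, 225460 to 226863) and PHO12 (chromosome VIII, 552099 to 553502) encode near-identical secreted acid phosphatases close to chromosome ends, 3355 and 9141 bp from the last base that the lists cover there. Neither had a peak over its coding span or upstream window at 0, 2 or 4 h. The nearest listed peaks lay 2290, 2272 and 2223 bp from PHO11 at 0, 2 and 4 h, and 2295, 2873 and 2865 bp from PHO12. Because the copies share most of their sequence, tags from either may have been dropped or split between them. An absent peak at these genes therefore cannot be read as an absence of Rap1, and a value at either could not have been given to that copy alone.

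PHO89 encodes the sodium-coupled phosphate transporter (chromosome II, 796798 to 798522, minus strand) and had the strongest Rap1 peak of the 10 genes. Its upstream peak spanned 798831 to 799282 in the 0 h list, 798835 to 799226 in the 2 h list and 798837 to 799247 in the 4 h list. The heights were 228, 259 and 264, and the fold enrichments 15.4, 13.8 and 9.15 at 0, 2 and 4 h. Within the lists it ranked 101 of 1212, 15 of 2438 and 67 of 4073. Since 1 tag was kept per position and strand, a height cannot pass 292, and heights near this limit compress both folds and ranks. The summit stayed within 5 bp, at 507, 512 and 509 bp before the coding start, and no other coding span or upstream window overlapped the peak. At 4 h alone a coding peak at 798272 to 798467 was listed with a fold enrichment of 2.38, its summit 144 bp after the start.

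PHO84 encodes the high-affinity proton-coupled phosphate transporter (chromosome XIII, 24037 to 25800, minus strand). An upstream peak was listed over 25903 to 26500 in the 0 h list, 26092 to 26433 in the 2 h list and 25902 to 26442 in the 4 h list. Heights were 72, 82 and 132, and fold enrichments 5.70, 4.41 and 4.59 at 0, 2 and 4 h. The summits lay 484, 469 and 471 bp before the coding start. They fall inside the reading frame YML122C, and the peak also lies in the 1000 bp before the divergent gene GTR1, which encodes a GTPase of nutrient signalling, so it cannot be assigned to PHO84 alone. No coding peak was listed in PHO84 at any time.

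PHO81 encodes the inhibitor of the Pho80 and Pho85 kinase (chromosome VII, 954674 to 958210, minus strand), and at 3537 bp its coding span is the longest of the 10 genes. Its main upstream peak was at 958381 to 958803, 958370 to 958745 and 958406 to 958764 at 0, 2 and 4 h, with heights of 117, 96 and 145. Fold enrichments were 8.05, 5.15 and 5.04, and the summits lay 391, 391 and 364 bp before the start. A weaker peak farther upstream, nearer to the divergent flavohemoglobin gene YHB1, was listed with fold enrichments of 2.82 at 0 h and 2.02 at 2 h and not at 4 h. No coding peak was listed in PHO81 at any time, despite its length.

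PHO4 encodes the activator itself (chromosome VI, 225020 to 225958, minus strand). Its peaks at 2 h (224905 to 225147) and 4 h (224919 to 225123) lay across the 3′ end of the coding span. The 2 h summit was 922 bp after the start, at 98.2% of the span, and the 4 h summit lay just past the end. Heights were 127 and 136 and fold enrichments 3.16 and 2.77 at 2 and 4 h. The local background was 39.5 at 2 h and 48.4 at 4 h, which is 2.21 and 1.73 times the genome-wide level and the highest of any PHO peak, so these folds are low for their heights. Both summits are nearest to the start of the downstream gene QCR6, which encodes a subunit of respiratory complex III, 267 and 240 bp before it. Both peaks lie in the upstream windows of QCR6 and MIN10.

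PHO80 encodes the cyclin of the pathway (chromosome XV, 325249 to 326130, plus strand). It had no peak at 0 or 2 h and 1 coding peak at 4 h, at 325635 to 325833, with a height of 66, a fold enrichment of 2.31 and its summit 526 bp after the start. Only the edge of this peak reaches into the upstream window of RRP6, which encodes an exonuclease of the nuclear exosome. The summit lies inside PHO80 and outside that window. The peak ranked 3002 of 4073 and was among the weaker PHO peaks of that list.

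**Figure D3:**
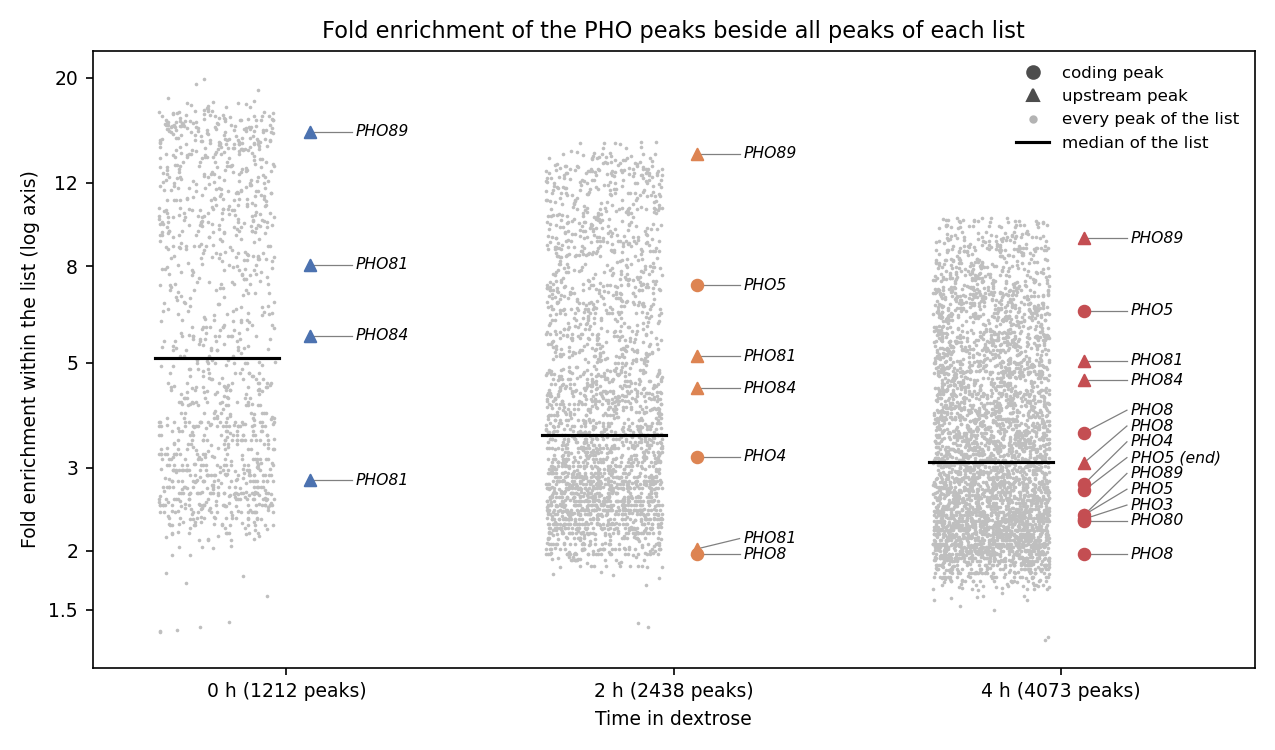
Fold enrichment within each list (log axis) of the PHO peaks, coloured circles for coding and triangles for upstream peaks, beside every peak of the same list in grey with its median of 5.11, 3.51 and 3.09 at 0, 2 and 4 h. PHO89 stands near the top of each list, PHO5 has the highest coding peak of the 10 genes at 2 h (7.28) and 4 h (6.44), and most other 4 h coding peaks lie below the median.

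Counted together, a coding peak was listed in 0 of the 10 PHO genes at 0 h, 3 at 2 h and 6 at 4 h. Among all 6002 genes the shares were 10.1, 26.8 and 43.3%. New coding peaks were in the same 3 genes at 2 h and 6 at 4 h, with shares of 18.5 and 36.1% of all genes. Upstream peaks were listed at 3, 3 and 6 of the 10 at 0, 2 and 4 h, against 24.4, 32.6 and 44.5% of all genes. Either location held a peak in 3, 6 and 8 of the 10, against 28.9, 46.8 and 64.2%. With 10 genes each count lay near what these shares give, and nothing particular to the PHO genes is read from them. The PHO coding spans had a median length of 1404 bp, against 1200 bp for all genes. Per kb of coding span, the PHO genes held 0, 0.186 and 0.433 summits at 0, 2 and 4 h, against 0.0295, 0.165 and 0.337 over all genes.

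**Figure D4:**
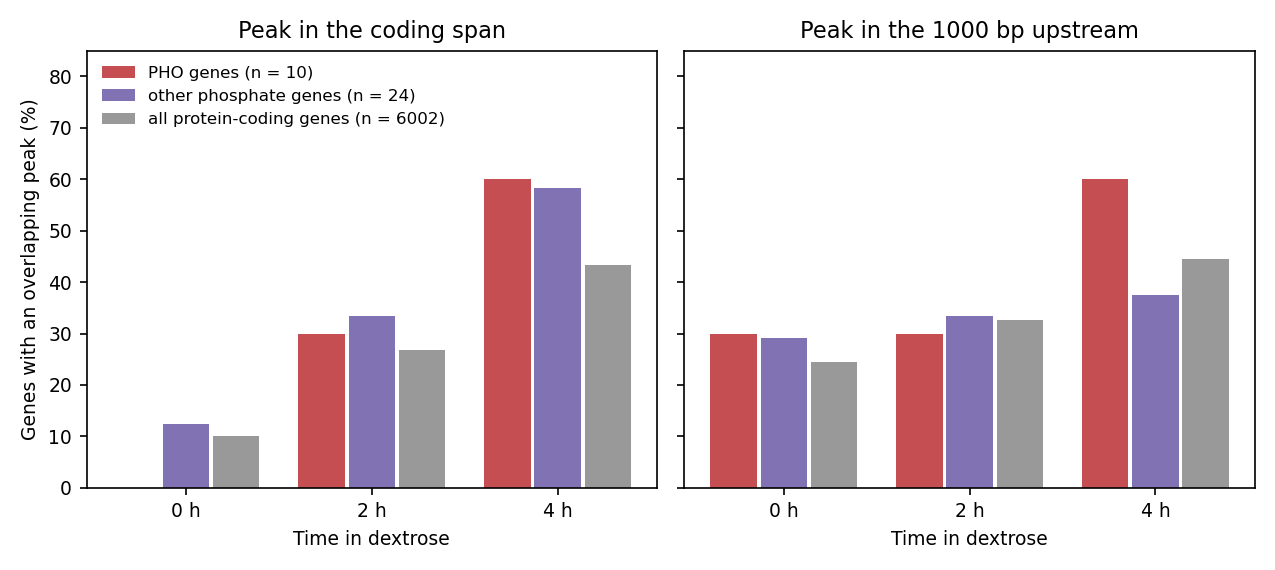
Share of genes (%) with a listed Rap1 peak in the coding span (left) or in the 1000 bp upstream (right) at 0, 2 and 4 h, for the 10 PHO genes, 24 other phosphate genes and all 6002 protein-coding genes. The coding shares are 0, 30.0 and 60.0% for the PHO genes and 10.1, 26.8 and 43.3% for all genes.

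The new peaks at PHO genes were set at the depth of the 0 h list, since the later lists rest on 1.51 and 2.37 times its kept tags. Height and local background were divided by these ratios, and the Poisson -log10 p was recomputed and set beside that of the weakest 0 h peak, 3.75. The PHO5 peak had a scaled height of 91.4 at 2 h and 82.0 at 4 h, with a -log10 p of 48.4 and 39.2. At the genome-wide background of the 0 h list a height of 26 reaches the weakest peak's p. The PHO4 peak reached a -log10 p of 19.2 and 11.2 at 2 and 4 h. The 4 h peaks in PHO80 (4.72), PHO3 (5.01) and PHO89 (5.07) passed by a small margin. The PHO8 peak passed at 4 h (12.3) and not at 2 h (3.21), and the peak nearer its start did not pass at 4 h (3.14). In all, 2 of 3 new PHO peaks passed at 2 h and 9 of 10 at 4 h, beside 94.2% of 1387 and 83.8% of 3019 new peaks in the whole lists. Scaled in the same way, the main upstream peaks listed at all times were lower at 2 and 4 h than at 0 h. Heights at 0, 2 and 4 h were 228, 172 and 112 at PHO89 and 72, 54.3 and 55.8 at PHO84. At PHO81 they were 117, 63.6 and 61.3. The unscaled PHO89 heights were near the limit of 292, and none of these differences was tested.

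**Figure D5:**
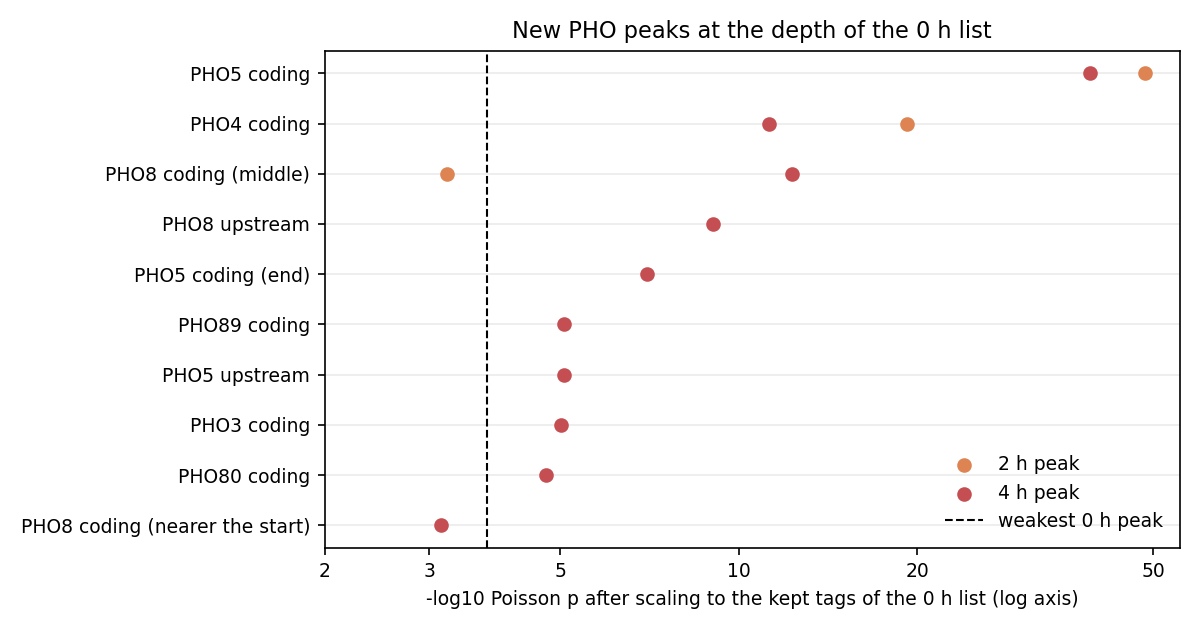
Poisson -log10 p (log axis) of each new PHO peak after its height and background were scaled to the kept tags of the 0 h list, for 2 h and 4 h peaks, with the weakest 0 h peak (3.75) as a dashed line. PHO5 stands at 48.4 and 39.2, while the 2 h peak of PHO8 (3.21) and its 4 h peak nearer the start (3.14) fall left of the line.

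The main upstream peaks of PHO84, PHO89 and PHO81 had their 0 h summits 391 to 507 bp before the coding start, within the middle range of all upstream summits at 0 h, whose quartiles were 238 and 606.5 bp. Between 0 and 4 h these summits moved by 13 bp at PHO84, 2 bp at PHO89 and 27 bp at PHO81, against a median of 9.0 bp for all 0 h peaks that overlapped a 4 h peak. The summits inside PHO coding spans at 4 h ranged from 8.35% of the span in PHO89 to 87.7% in PHO5. The quartiles of all new coding summits were 23.6 and 72.4%. A full range and quartiles are unlike measures, so the spreads are not compared.

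By the ranks of their highest coding peak in the 3 lists, the genes most like PHO5 were MIP1, ARG4 and SHC1, which encode the mitochondrial DNA polymerase, argininosuccinate lyase and an activator of chitin synthesis in spores. The measure is the distance between rank percentiles over 3 lists, and it was 1.07, 1.12 and 1.48 percentage points. None of the 3 had a coding peak at 0 h, and their fold enrichments were 7.12, 7.24 and 7.09 at 2 h and 6.45, 6.29 and 6.35 at 4 h.

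Of 24 other genes of phosphate uptake, storage and signalling, 3, 8 and 14 had a coding peak and 7, 8 and 9 an upstream peak at 0, 2 and 4 h. As shares these were 12.5, 33.3 and 58.3% for coding and 29.2, 33.3 and 37.5% for upstream peaks, beside 10.1, 26.8 and 43.3% and 24.4, 32.6 and 44.5% of all genes. The highest coding peak of these genes at 4 h was in PHO87 (8.15), encoding a low-affinity phosphate transporter. It was followed by PHO85 (7.55), the kinase that pairs with Pho80, GDE1 (6.96), encoding a glycerophosphocholine phosphodiesterase, and VTC5 (6.70), a subunit of the polyphosphate polymerase. PHO85 had no peak at 0 h and a fold enrichment of 6.11 at 2 h, with its summit 867 bp after the start. A strong new coding peak was thus listed in the kinase gene and only a weak one at 4 h in the cyclin gene. The PHO85 peak lies across the 3′ end of the coding span and in the upstream window of SVL3, the nearest start. It therefore cannot be assigned to PHO85 alone. At 4 h the edge of the peak also reaches into the upstream window of TRM44, with the summit outside that window. The highest upstream peaks at 4 h were at PHM7 (8.34), PHO88 (5.10), VTC5 (4.63) and PHO91 (4.42). The PHM7 peak also lies in the upstream window of the alcohol dehydrogenase gene ADH1, and that of PHO88 overlaps VID24. That of PHO91 lies in the upstream window of YNR014W. The PHM7, PHO88 and PHO91 peaks therefore cannot be assigned to the phosphate gene alone. The upstream peak of VTC5 overlapped no other coding span or upstream window. The PHM7 and PHO88 peaks reach into the windows of their phosphate genes from outside, with summits 1074 and 1220 bp before the start.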

How the data were processed

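Rap1 ChIP-seq values came from 1 deposited MACS2 peak list per time point. Per the file headers, MACS2 2.0.10.20130712 was run without a control library, calling peaks at q of at most 0.05, keeping at most 1 tag at each position and extending tags to 146 bp. The sources used here do not say whether the replicates were pooled. Per the submitters' processing notes, Bowtie, SAMtools and the build sacCer3 were used. Per the file headers, the summit signal is a height without depth scaling, the fold enrichment is the ratio of height to local background, and each peak has a -log10 q. All are the authors' own values.

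The share of tags kept was 40.4, 30.6 and 37.8% at 0, 2 and 4 h. With no control library, uneven fragmentation or mapping is not corrected for. Local background was recovered from height and fold with 1 added to each, as the caller does, and its lowest value matched the genome-wide background of extended tags to within 7.2e-05 tags. Genes came from the RefSeq R64 table, with the strand read from the systematic name. Overlaps were counted in Python 3.11.15 (pandas 2.3.3, scipy 1.17.1). Scaling by kept tags used summit values only, without the caller's length rule or new random draws. The functions were tested on simulated peaks. The members, the other phosphate genes and the rules were chosen with earlier results of these data known. All 10 members are named, with neighbours that share a peak, the 3 genes most like PHO5 in rank percentile, and up to 4 other phosphate genes per location by 4 h fold. Promoter motifs and protein identities were not run, because no sequence was used here.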

Additional observations from a re-analysis of the deposited data

How the results depend on the processing

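Of 78 counts of PHO genes under the alternatives, 72 stayed within 1.5 times their main value, including counts that could not change. For counts this small the bound is wide. Coding peaks at 2 h, for example, went from 3 to 2 genes with a -log10 q of at least 5 and with depth scaling. The shares of all genes there were 25.1 and 26.0%. Upstream peaks at 4 h went from 6 to 4 genes with a window of 500 bp, beside 30.8% of all genes. Keeping in the later lists only as many peaks as the 0 h list holds, by -log10 q, moved the 4 h counts: 1 gene in place of 6 for coding peaks and likewise for new coding peaks, this being PHO5, 3 in place of 6 upstream and 4 in place of 8 in either location. The shares of all genes under this setting were 15.9% for coding, 8.48% for new coding, 19.3% for upstream and 29.0% for either location, so they were lower as well. With an upstream window of 250 bp, upstream peaks were at 1 gene in place of 3 at 2 h and 3 in place of 6 at 4 h, beside 15.9 and 21.1% of all genes. The shorter lists and the narrower window hold fewer peaks by construction. Each count stayed within 1.5 times with the summit or at least 50% of the peak inside the location and with a window of 500 bp. The same held for a -log10 q of at least 5 and for scaling to the kept tags of the 0 h list. Leaving out PHO11 and PHO12, which have no peak, could not change any count. The 0 h counts could not change under equal list lengths or under scaling. Since every alternative only removes peaks or genes, the empty 0 h coding count could not change under any of them. No paired analysis was possible because each time point has 1 list, the columns carry no replicate number and no test was run. Leaving out a replicate was not possible for the same reason. A weak peak missing from the 0 h list, which has the fewest kept tags, may have been present below its threshold.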

Other observations

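PHO87 and VTC5, a low-affinity phosphate transporter gene and the gene of a polyphosphate polymerase subunit, had a listed coding peak at the same place at 0, 2 and 4 h. In PHO87 the summit lay 1876, 1886 and 1896 bp after the coding start, with heights of 33, 194 and 235. After scaling to the depth at 0 h, heights were 129 at 2 h and 99.3 at 4 h, and the fold enrichments within the 3 lists were 2.65, 9.21 and 8.15. In VTC5 the summit lay 1114, 1137 and 1139 bp after the start, with heights of 39, 145 and 193. The scaled heights at 2 and 4 h were 96.1 and 81.5, and the fold enrichments 3.12, 7.76 and 6.70. In both genes the unscaled height was higher at 4 h than at 2 h, while the scaled height was lower. PHO88 also had a coding peak at 0, 2 and 4 h, across its coding start and within the upstream window of VID24. Its summit lay 46, 59 and 71 bp after the start, with heights of 39, 91 and 160. There the scaled height was 60.3 at 2 h and higher, 67.6, at 4 h. The fold enrichments of the PHO88 peak were 3.12, 3.79 and 3.75. With 1 list per time point none of these differences was tested.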
